A study of Mus musculus with 16 samples.

Results

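The genes described here encode the nuclear subunits of the mitochondrial respiratory chain and of ATP synthase. They were chosen by gene symbol and a minimum level, with earlier results of these data known. The symbols were those of the Nduf (a, b, c, s and v), Sdh, Uqcr, Cyc1, Cox (families 4 to 8) and Atp5 series. Members also had a mean of at least 10 depth-normalized reads over the 16 libraries. Of 17159 genes in the table, 82 carried such a symbol and 80 reached that mean; Cox4i2 and Ndufa4l2 did not. Of the 80, 77 are counted as subunits, including, under complex IV, Cox7a2l, a factor that joins complexes III and IV. By complex they are 34 of complex I, 4 of complex II, 9 of complex III, 15 of complex IV and 15 of complex V. The other 3 share only the symbol series: Cox4nb (Emc8), a subunit of a membrane protein insertion complex, and Atp5s and Atp5sl (Dmac2l and Dmac2), which encode mitochondrial factors outside the complexes.

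RNA was sequenced from CD8+ T cells of C57BL/6 mice that had been activated through CD3 and CD28 for 2 days and were then held for 36 h in 1 of 4 media, with 4 libraries per medium. The media were fresh medium lacking methionine (methionine-free), fresh medium with methionine (complete), the supernatant of B16F10, a cell line from mouse melanoma, and that supernatant with methionine added back (supplemented). All 4 groups share the strain, the activation and the culture time. Nothing in the labels ties libraries to animals or cultures, so p-values measure only the spread between libraries, which may be technical.

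The respiratory chain passes electrons from NADH through complex I, and from succinate through complex II, to coenzyme Q, then through complex III and cytochrome c to complex IV, where oxygen is reduced. Complexes I, III and IV pump protons across the inner mitochondrial membrane, and ATP synthase (complex V) makes ATP as the protons return. Most subunits are encoded in the nucleus, some by several genes of which one prevails in a tissue such as heart or skeletal muscle, and activated T cells are known to build up mitochondria as they grow.

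Promoter sequences were looked up for the subunit genes because the members moved together, and 6 are shown: 3 of the genes that changed most (Sdhb, Uqcrh and Ndufv3), a succinate dehydrogenase partner of Sdhb that changed less (Sdhd), the common form of a subunit whose muscle form went the other way (Cox6a1), and a gene that itself went the other way (Uqcr10). RefSeq windows (GRCm38.p6) of 300 bases around annotated starts matched 64 of the 77 subunit genes, with 69 windows. Each sequence is written 5′ to 3′ on the gene's strand, and capitals mark matches on either strand to TGCGCA, the core of the site of nuclear respiratory factor 1 (NRF1), and to CCGGAA, a core shared by ETS factors such as GABP, also called NRF2.
Sdhb (chr4:140961021-140961320, plus strand): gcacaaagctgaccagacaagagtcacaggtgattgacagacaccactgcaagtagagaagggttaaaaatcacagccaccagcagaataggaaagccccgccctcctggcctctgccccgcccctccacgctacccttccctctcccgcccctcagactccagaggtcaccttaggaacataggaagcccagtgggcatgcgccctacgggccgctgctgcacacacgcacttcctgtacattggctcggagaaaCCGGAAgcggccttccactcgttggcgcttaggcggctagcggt
Uqcrh (chr4:116075021-116075320, minus strand): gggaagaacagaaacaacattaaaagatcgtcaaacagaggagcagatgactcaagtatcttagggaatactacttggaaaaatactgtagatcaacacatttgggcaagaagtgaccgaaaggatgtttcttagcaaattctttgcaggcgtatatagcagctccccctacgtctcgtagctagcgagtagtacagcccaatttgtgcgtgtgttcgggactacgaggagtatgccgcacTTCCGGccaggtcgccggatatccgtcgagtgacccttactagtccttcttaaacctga
Ndufv3 (chr17:31519865-31520164, plus strand): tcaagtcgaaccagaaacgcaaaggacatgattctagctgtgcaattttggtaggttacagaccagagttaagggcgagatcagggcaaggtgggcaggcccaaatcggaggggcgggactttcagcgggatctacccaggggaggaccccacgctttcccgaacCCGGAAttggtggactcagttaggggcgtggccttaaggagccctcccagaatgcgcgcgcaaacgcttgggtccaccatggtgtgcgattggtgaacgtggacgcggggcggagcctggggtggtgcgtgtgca
Sdhd (chr9:50603800-50604099, minus strand): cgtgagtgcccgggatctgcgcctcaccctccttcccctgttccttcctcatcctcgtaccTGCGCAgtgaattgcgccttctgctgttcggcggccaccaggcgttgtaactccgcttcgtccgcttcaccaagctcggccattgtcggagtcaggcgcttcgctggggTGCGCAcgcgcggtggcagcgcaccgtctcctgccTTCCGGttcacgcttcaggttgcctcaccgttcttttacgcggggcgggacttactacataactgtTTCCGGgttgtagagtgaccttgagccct
Cox6a1 (chr5:115348909-115349208, minus strand): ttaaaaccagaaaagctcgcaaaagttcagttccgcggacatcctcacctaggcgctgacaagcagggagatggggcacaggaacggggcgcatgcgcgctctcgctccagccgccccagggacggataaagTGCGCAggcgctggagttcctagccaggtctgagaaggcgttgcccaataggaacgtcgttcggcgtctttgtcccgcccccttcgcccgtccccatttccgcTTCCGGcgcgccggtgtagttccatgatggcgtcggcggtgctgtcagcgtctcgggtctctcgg
Uqcr10 (chr11:4704295-4704594, minus strand): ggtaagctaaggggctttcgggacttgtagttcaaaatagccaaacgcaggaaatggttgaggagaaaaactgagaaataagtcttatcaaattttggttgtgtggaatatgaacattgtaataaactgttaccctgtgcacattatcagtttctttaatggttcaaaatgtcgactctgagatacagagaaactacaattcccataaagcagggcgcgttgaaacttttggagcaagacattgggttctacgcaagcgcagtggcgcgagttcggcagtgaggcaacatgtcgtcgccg
Sdhb, Uqcrh and Ndufv3 each had 1 ETS core and no NRF1 core, Sdhd had 2 of each, Cox6a1 had 1 of each and Uqcr10 had neither. The 6 genes were picked with the results known. Cox7a1 and Atp5c1, which fell more than Uqcrh and Ndufv3, are not shown, and the 2 windows of Atp5c1 held neither core.

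Across the subunit genes, the NRF1 core was in 26.1% of 69 windows, against 13.5% of 12564 windows of all tested genes and 7.76% of all 32851 windows in the RefSeq table. The ETS core was in 37.7% of the subunit windows, against 26.9% of those of tested genes and 14.9% of all. The core AAGATGG of the YY1 site was in 15.9%, 6.93% and 6.34% of these windows, and the E-box CACGTG in 10.1%, 9.95% and 7.15%. The GC box GGGCGG was in 39.1%, 61.7% and 35.7%, and CCAAT in 42.0%, 37.9% and 37.4%. All 6 motifs were searched on both strands; a stretch may count for more than 1 motif. Among the 11 windows of the subunit genes that were at least 2-fold lower without methionine, 1 held the NRF1 core and 6 the ETS core, against 17 and 20 of the other 58. In the same 2 sets the YY1 core was in 0 and 11, the E-box in 1 and 6, the GC box in 4 and 23 and CCAAT in 7 and 22. These are counts of letters in fixed windows and do not show that a factor binds there.

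Reads assigned to genes, recovered from the depth-normalized values, summed to 25799636 to 42308209 per library. The labels were checked on Mat2a, which encodes methionine adenosyltransferase 2 and is known to rise when methionine is short: its log2 fold change was 2.42 without methionine in fresh medium (SE 0.027, adjusted p = 1.63e-36, limma) and -1.65 on adding methionine to supernatant (adjusted p = 6.02e-32). All 10 listed CD8 T cell markers were detected, and their summed levels moved with the media: 298603 to 313358 depth-normalized reads in complete, 224137 to 231845 in methionine-free, 262036 to 272968 in supernatant and 353123 to 371322 in supplemented medium. Of the 10, 7 were lower and 2 higher in methionine-free than in complete medium. The summed markers of other cell types that the cultures could hold were at most 4610 for CD4 T cells, 2471 for NK cells, 974 for B cells, 282 for melanocytes and melanoma and 188 for myeloid cells. All 5 of these sums were higher in every library of both media without added methionine than in complete fresh medium, but single markers differed. In supplemented medium the NK sum was the highest of the 4 media, at 2354 to 2471. The CD4 sum there was 3323 to 3610, against 1976 to 2142 in complete medium. The B cell and myeloid sums of supplemented medium lay below those of complete medium, and the melanocyte sum overlapped. In methionine-free medium most of the CD4 sum was Zbtb7b and most of the NK sum was Eomes. Against complete medium there, 3 of 4 tested CD4 markers were higher, but not Cd4 itself (means 163 and 182). Of 3 tested NK markers, 1 was lower (Klrb1c, 24.6 and 102) and 1 higher. Of 3 tested melanocyte markers, 1 was lower (Tyr, 37.8 and 62.2) and 2 higher. No tested B cell or myeloid marker was lower. The part of any of these lists in the results was not tested.

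Without methionine, the transcripts of nearly every subunit fell. In methionine-free against complete fresh medium, 73 of the 80 members were lower and 4 higher at an adjusted p below 0.05 (limma, Benjamini-Hochberg adjustment over 12469 genes); of all tested genes, 42.3% were lower and 43.3% higher. The median log2 fold change of the members was -0.58, against 0.01 for all tested genes. Most steps were below 2-fold: 12 members fell at least 2-fold, a share of members close to the 13.5% of all genes that did. Together the members took 1.18% ± 0.039 (SD, n = 4) of all reads assigned to genes in complete fresh medium and 0.853% ± 0.019 in methionine-free medium. In bulk RNA, these are shares of the RNA of the whole culture, and a change in RNA per cell cannot be told apart from a change in the mix of cells. When values were scaled to total reads instead of the depositors' factors, the median of all genes moved to 0.17, and 63 members were lower and 6 higher.

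Most members were also lower in B16F10 supernatant than in complete fresh medium. There 72 members were lower and 4 higher, against 42.5% and 43% of all genes, with a median of -0.61; 14 members were at least 2-fold lower, against 13.4% of all genes. This comparison and the one above use the same complete fresh libraries, so they are not independent of each other. Set directly against methionine-free fresh medium, supernatant left 76 of the 80 members uncalled: 2 were lower and 2 higher, against 12.9% and 14% of all genes, and the largest difference was 0.52 on the log2 scale. The lower 2 were Cox6b2 at -0.52 (SE 0.11, adjusted p = 0.000386, limma) and Ndufs7, a core subunit of complex I, at -0.17 (SE 0.043, adjusted p = 0.00339); Atp5c1 was higher by 0.13 and Uqcrc2 by 0.08, the last not called when any of 6 single libraries was left out. None of these 4 calls was made in the FPKM table, where with the replicate block 2 other members, Atp5d and Ndufv3, were higher and 0 lower. With edgeR on recovered reads of 15 libraries, 6 were lower and 1 higher. With scaling to total reads, 7 were lower and 1 higher.

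Adding methionine to the supernatant raised most of the same genes. Against unsupplemented supernatant, 67 members were higher and 4 lower, while 41.8% of all genes were higher and 41.8% lower; the median of the members was 0.43. At least 2-fold rises were seen in 11 members, where 11% of all genes rose as much. This comparison shares no library with that of the 2 fresh media. Of the 73 members lower in methionine-free medium, 65 (89.0%) were higher on adding methionine to supernatant, 7 were not called and 1, Atp5j2, was lower; of all 5275 genes lower in methionine-free medium, 83.1% were higher on addition. Over all tested genes, 35.2% were both lower in the first comparison and higher in the second. With scaling to total reads, 55 members were higher and 9 lower on addition.

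**Figure D1:**
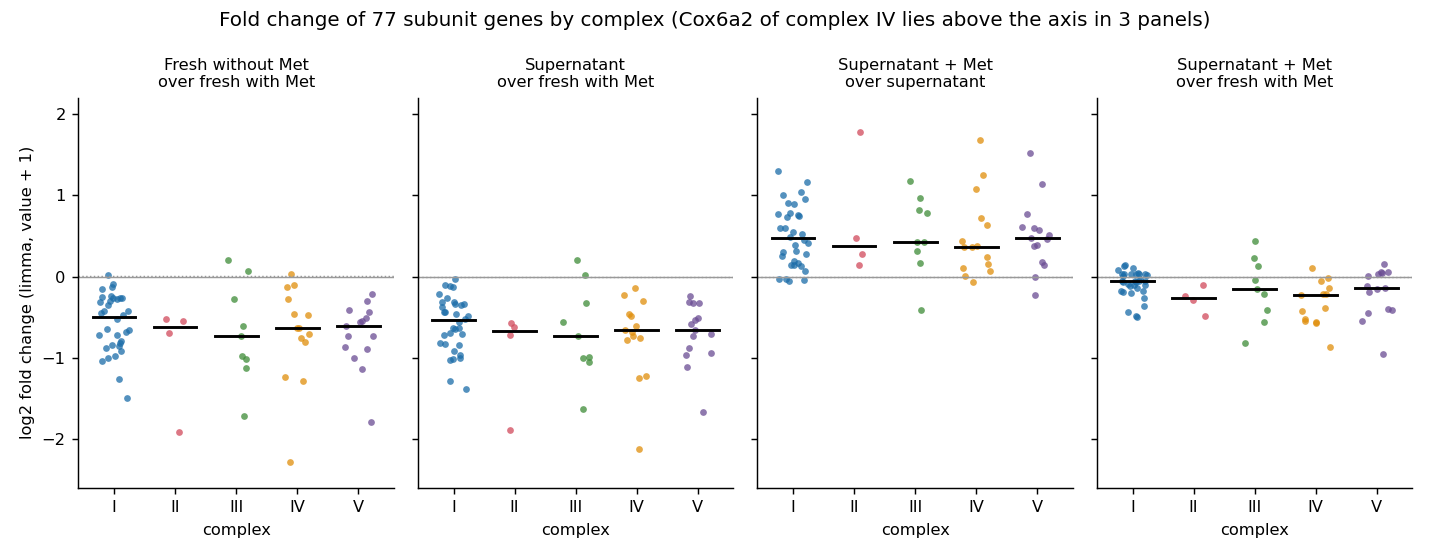
Log2 fold change of each of the 77 subunit genes (points), by complex, in 4 comparisons; "Met" is methionine, black bars are medians of a complex and the dotted line is the median of all tested genes. The points lie mostly below 0 in the first 2 panels and above 0 in the third, and in the fourth they scatter near 0 with a tail below it; Cox6a2 of complex IV, at 4.01, 4.02 and 5.71, is above the axis in 3 panels.

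All 5 complexes took part. In methionine-free medium, 33 of 34 complex I genes were lower (median -0.50), as were 4 of 4 of complex II (-0.62), 7 of 9 of complex III (-0.73), 13 of 15 of complex IV (-0.64) and 15 of 15 of complex V (-0.61). On the FPKM scale, which divides by transcript length, the summed level of complex V was 7999 ± 473 (SD, n = 4) in complete fresh medium, 4634 ± 486 in methionine-free medium, 4741 ± 671 in supernatant and 6925 ± 472 in supplemented supernatant. The sum over complex I was 5266 ± 318, 3363 ± 289, 3414 ± 493 and 4882 ± 317 in the same order, and that over complex II was 588 ± 29.1, 304 ± 30.3, 297 ± 36.2 and 481 ± 44.96. For each of these 3 complexes, every library with methionine exceeded every library of both media without added methionine. Complex III, with 2279 ± 182 in complete medium and 1430 ± 183 in methionine-free medium, and complex IV, with 5173 ± 525 and 3008 ± 357, were ordered likewise.

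Complex I is the NADH dehydrogenase. Its 3 largest changes in methionine-free against complete medium were in 3 subunits of the module that takes electrons from NADH. All other complex I genes, those for further subunits of that module among them, changed less in that comparison. Ndufv1 and Ndufv2 encode the flavin-bearing and iron-sulfur subunits of that module, and Ndufv3 a small accessory subunit of it. Ndufv3 (chromosome 17) had 5463, 4995, 5375 and 5014 depth-normalized reads in the libraries of complete fresh medium and 1839, 1751, 1959 and 1838 in methionine-free medium. It had 2016, 2078, 1906 and 1967 in supernatant and 3693, 4046, 3809 and 3391 in supplemented supernatant. No library of either medium without added methionine reached a library with it, and the supplemented libraries all stayed below the complete fresh ones. The log2 fold change was -1.50 in methionine-free medium (SE 0.044, adjusted p = 2.22e-25, limma), -1.39 in supernatant and 0.90 on addition (SE 0.044, adjusted p = 4.24e-19), and supplemented supernatant was -0.48 from complete medium (adjusted p = 2.21e-11). In the FPKM table that last difference was -0.53, with adjusted p = 0.0585 unless the replicate number was a block.

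Ndufv2 and Ndufv1 fell by 1.26 and 1.04 on the log2 scale without methionine (limma, adjusted p = 4.98e-23 and 2.2e-23) and rose by 1.29 and 1.16 on addition. Ndufv2 ranged over 3954 to 4598 reads in complete and 4222 to 4472 in supplemented medium, ranges that overlap, against 1731 to 1859 and 1572 to 1879.5 in the others. All 7 nuclear core subunits, those that carry the redox centres or their folds, were lower without methionine and higher on addition, with medians of -0.68 and 0.52. Of the 27 accessory subunits, 26 were lower and 22 of 27 rose on addition, with medians of -0.47 and 0.41. This split was made with the results known. The smallest step was in Ndufb7, an accessory subunit of the membrane arm, which had 3136, 3209, 3004 and 2975 reads in complete and 3082, 3132, 3110.1 and 3168 in methionine-free medium; the log2 difference was 0.02 (SE 0.039, adjusted p = 0.631, limma) and it was not called in any comparison. Scaling to total reads turned its sign in supernatant, from -0.03 to 0.12, and that value was called higher.

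Complex II, succinate dehydrogenase, has only nuclear subunits, and they changed unequally. Sdhb, the iron-sulfur subunit (chromosome 4), had 6107, 5873, 5908 and 5829.7 reads in complete fresh medium, 1566, 1624, 1505 and 1615 in methionine-free medium, 1701, 1491, 1663 and 1568 in supernatant and 5356, 5468, 5979 and 5286 in supplemented supernatant. The 2 groups without added methionine overlapped each other and lay far below the 2 with it, which overlapped in 1 library. Sdhb fell by 1.91 on the log2 scale in methionine-free medium (SE 0.041, adjusted p = 2.99e-29, limma) and by 1.89 in supernatant, and rose by 1.78 on addition (SE 0.041, adjusted p = 4.16e-28).

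The flavoprotein Sdha and the membrane anchors Sdhc and Sdhd, which bind the same enzyme, fell by 0.52, 0.69 and 0.55 in methionine-free medium (limma, adjusted p = 1.45e-18, 1.48e-17 and 3.49e-17). On addition they rose by 0.28, 0.48 and 0.14, steps smaller than that of Sdhb. Sdhd had 6910.3, 6566, 6539 and 6474 reads in complete medium and 4718, 4854, 4823 and 4569 in supplemented supernatant, so the 2 groups did not overlap and the difference was -0.48 (limma, adjusted p = 7.64e-15). The rise of Sdhd was not called in the FPKM table or with scaling to total reads. All 4 genes were lower in supplemented supernatant than in complete fresh medium, but for Sdhb the difference of -0.10 (SE 0.041, adjusted p = 0.0249) was not called in the FPKM table, nor when any of 4 single libraries was left out.

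Complex III passes electrons from coenzyme Q to cytochrome c, and it held both large and opposite steps. Uqcrh, the hinge subunit that docks cytochrome c (chromosome 4), had 5846, 5724, 5322 and 5171 reads in complete fresh medium and 1729, 1545, 1619.6 and 1822 in methionine-free medium. It had 1653, 2002, 1800.1 and 1679.6 in supernatant and 3209, 3239, 3181 and 2912 in supplemented supernatant. The supplemented libraries lay between the others and touched none of them. Uqcrh fell by 1.72 (SE 0.052, adjusted p = 5.71e-25, limma), rose by 0.82 on addition (SE 0.052, adjusted p = 6.96e-16) and remained -0.81 from complete medium (SE 0.052, adjusted p = 3.86e-15). A processed pseudogene overlaps the Uqcrh locus on the opposite strand, and near-identical copies could share its reads.

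Uqcrc2, one of the large core proteins, fell by 1.13 and rose by 1.18 (limma, adjusted p = 3.25e-26 and 1.86e-26), and Uqcr11, the smallest subunit, fell by 1.01 and rose by 0.43. Uqcr10, another small subunit of the same complex (chromosome 11), went the other way. It had 2912, 2802, 2854 and 3118 reads in methionine-free medium and 2724, 2561, 2428 and 2428 in complete medium. It had 2985, 2965, 2942 and 2770.1 in supernatant and 2109, 2218, 2386 and 2039 in supplemented supernatant, so every library without added methionine was above every library with it. The log2 differences were small: 0.20 (SE 0.044, adjusted p = 8.68e-05, limma), 0.20 in supernatant and -0.42 on addition (SE 0.044, adjusted p = 2.74e-10). In the FPKM table the first 2 were 0.09 and were not called, with adjusted p = 0.686 and 0.688, or 0.321 and 0.322 with the replicate block; the third was -0.27 there and was called only with the block. Uqcrq, which sits beside cytochrome b, was not called without methionine (0.07, adjusted p = 0.21) and was higher in supplemented supernatant than in any other group, with 4817, 4990.0, 5069 and 4528 reads against 3949.6, 3792, 3493 and 3096 in complete medium (0.44, SE 0.049, adjusted p = 1.85e-09, limma; called in the FPKM table only with the block).

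**Figure D2:**
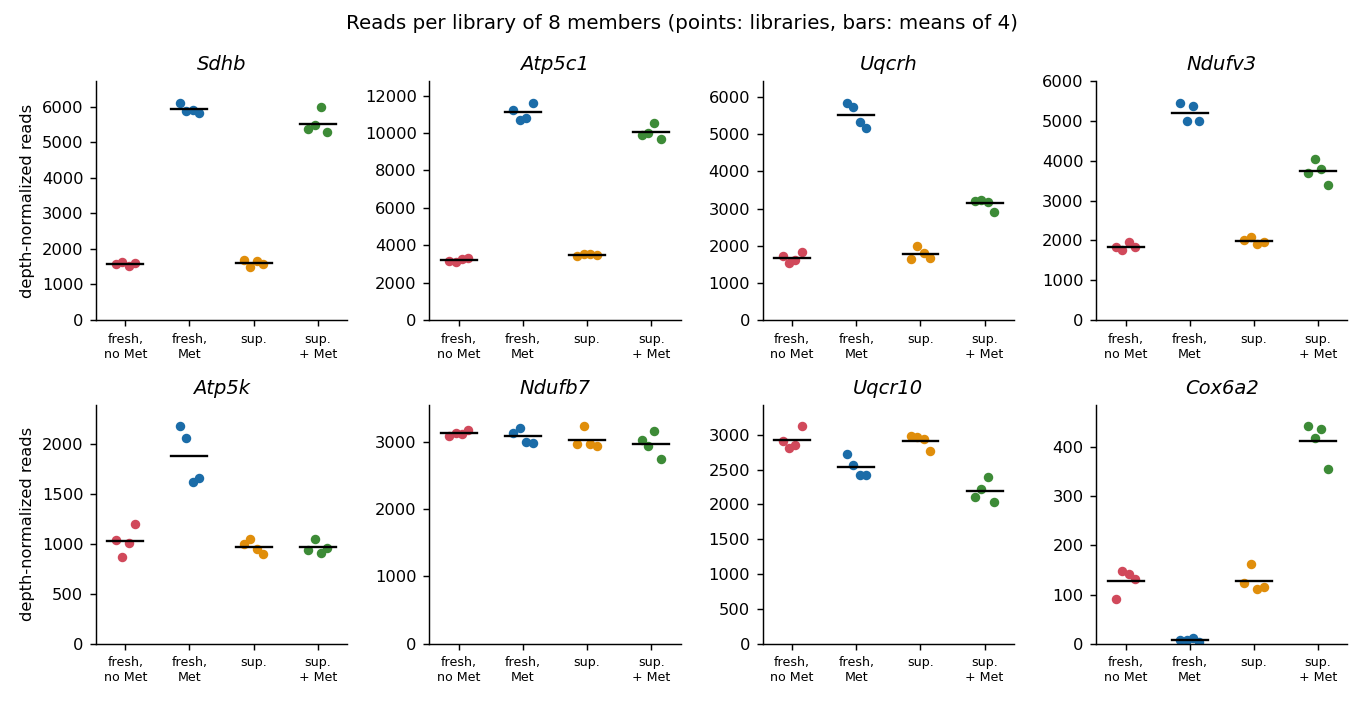
Depth-normalized reads (linear axes from 0) of 8 members in each library of the 4 media (points) with group means (bars). Sdhb and Atp5c1 return near their level in complete medium when methionine is added to supernatant, Uqcrh and Ndufv3 go part of the way, Atp5k stays at the level of unsupplemented supernatant, Ndufb7 is level, Uqcr10 is inverted and Cox6a2 is highest in supplemented supernatant.

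Complex IV, cytochrome c oxidase, is the complex with most tissue forms. Cox4i1, the common form of its largest nuclear subunit, had 12054, 11413, 11144 and 11354 reads in complete and 4732, 4782, 4925 and 5079.9 in methionine-free medium, and the lung and hypoxia form Cox4i2 had 0 to 14.1 reads in any library. Cox4i1 fell by 1.24 (SE 0.035, adjusted p = 1.05e-25, limma) and rose by 1.08 on addition. Its gene overlaps Cox4nb on the opposite strand, and Cox4nb was higher without methionine (0.25, adjusted p = 7.03e-06); how reads of the shared stretch were counted is not given in the sources used here. Cox6b1, a subunit at the interface of the dimer, fell by 1.29 (adjusted p = 1.19e-24), regained 0.72 and stayed -0.52 from complete medium.

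The muscle form Cox6a2 behaved unlike every other member. Its level was 7.83, 8.47, 11.7 and 2.61 reads in complete fresh medium, the lowest group, and 90.4, 148, 141 and 132 in methionine-free medium. In supernatant it was 124, 163, 112 and 115, and in supplemented supernatant 442, 418, 436 and 355. So all groups but the 2 without added methionine were apart from each other, and methionine went with a fall in fresh medium and with a rise in supernatant. The log2 fold changes were 4.01 in methionine-free medium (SE 0.23, adjusted p = 2.07e-17, limma), 4.02 in supernatant, 1.69 on addition (SE 0.23, adjusted p = 3.61e-08) and 5.71 between the 2 media with methionine (SE 0.23, adjusted p = 1.34e-20). The last is the highest value of all 12469 tested genes in that comparison.

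Even at its peak Cox6a2 was scarce beside the common form Cox6a1, which had 7399.9, 7008, 7653 and 7120.3 reads in supplemented supernatant. Its share of the reads of the pair was 0.0993% ± 0.046 (SD, n = 4) in complete medium, 2.57% ± 0.57 in methionine-free medium, 2.65% ± 0.33 in supernatant and 5.35% ± 0.42 in supplemented supernatant. The muscle marker list (12 of its genes are in the table and 5 were tested) had summed levels of 206 to 296 reads in complete medium and 171 to 188 in supplemented supernatant, so it was not higher where Cox6a2 was. Cox6a2 lies on chromosome 7 between 128205435 and 128206366 (GRCm38), where Itgad, an integrin gene, overlaps it on the opposite strand. Itgad had 23.5 to 35.5 reads in methionine-free, 2.24 to 8.10 in complete, 37.5 to 51.3 in supernatant and 3.46 to 9.26 in supplemented medium. Itgad was thus also higher without methionine (log2 fold change 2.29, SE 0.33, adjusted p = 1.59e-07, limma), but not in supplemented supernatant, where Cox6a2 peaked (-0.09 against complete medium, adjusted p = 0.825).

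The other paired forms changed in ratio as well. The log2 of the ratio between 2 forms within a library, each value plus 1, was compared by exact two-sided permutation tests, 18 in all. The smallest permutation p that 4 against 4 libraries allow is 0.0286, and it became 0.0302 after Benjamini-Hochberg adjustment. That value was reached in 17 of the 18 tests, in each of which the 2 groups did not overlap. Cox7a1, the muscle form of subunit 7a, fell relative to the common form Cox7a2, by 1.64 in methionine-free medium (SE 0.18) and by 1.46 in supernatant (SE 0.24). Its rise of 1.15 over Cox7a2 on addition was the exception, with exact permutation p = 0.0571 and overlapping groups. Cox7a1 itself had 62.6, 56.5, 91.8 and 76.7 reads in complete, 12.5, 13.8, 14.6 and 14.3 in methionine-free, 13.3, 12.9, 22.3 and 14.8 in supernatant and 20.2, 46.3, 48.9 and 45.9 in supplemented medium. It moved with most members, in contrast to Cox6a2, the other form known from muscle.

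Cox6b2, the testis form of subunit 6b, gained on Cox6b1 by 1.33 without methionine (SE 0.12) and by 0.76 in supernatant (SE 0.087), and its ratio changed by -0.79 on addition (SE 0.089). In reads Cox6b2 had 284, 226, 208 and 256 in methionine-free and 275, 251, 219 and 203 in complete medium, which overlap, and 151, 188, 178 and 157 in supernatant and 172, 175, 149.7 and 146 in supplemented supernatant, which lie lower. So its gain in methionine-free medium came with the fall of Cox6b1 and not with a called rise of its own. Cox7a2l, a factor that joins complexes III and IV, was counted with complex IV and also set against Cox7a2. Its 3 tests thus do not compare tissue forms of 1 subunit. It gained on Cox7a2 by 0.54, 0.52 and 0.13 in the 3 comparisons. Cox7a2l was nearly level, at -0.10 without methionine and 0.24 on addition, and with scaling to total reads its sign without methionine turned to 0.06. In the FPKM table and with quantile normalization its fall without methionine was not called. For Cox7a2 the rise on addition, 0.10, turned to -0.03 with scaling to total reads and was not called when replicate 1 of supplemented supernatant was left out (0.07, adjusted p = 0.0908). Cox8a, the common form of subunit 8, fell by 0.12 (adjusted p = 0.0109) and was not called on addition (0.01); scaled to total reads these were 0.04 and -0.12. The fall was not called without replicate 1 of methionine-free or replicate 0 of complete medium. In the FPKM table the muscle form Cox8b and the testis forms Cox8c and Cox7b2 were listed at or near 0.

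ATP synthase held the most abundant members. Atp5b and Atp5a1, the catalytic and regulatory subunits of its F1 head, reached 62432 to 65739 and 39739 to 40809 reads in complete medium and fell to 42654 to 43940 and 27573 to 28756 without methionine. Atp5c1, the central stalk that turns inside the head (chromosome 2), fell much further. It had 11247, 10720.4, 10830.3 and 11622 reads in complete fresh medium and 3152, 3091, 3239 and 3344 in methionine-free medium. It had 3419, 3529.9, 3538 and 3504 in supernatant and 9914, 10015, 10543 and 9659 in supplemented supernatant. No library without added methionine came near those with it, and the supplemented libraries all lay below the complete ones. Atp5c1 fell by 1.79 (SE 0.033, adjusted p = 4.37e-31, limma), rose by 1.52 on addition (SE 0.033, adjusted p = 8.09e-29) and stayed -0.15 from complete medium (SE 0.033, adjusted p = 0.000206), a difference not called in the FPKM table unless the replicate number was a block. Across the 5 F1 subunits the medians were -0.51 and 0.52, and across the other 10 they were -0.73 and 0.47, a split made with the results known.

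The c ring, through which protons pass, is built from 1 protein made by 3 genes, Atp5g1, Atp5g2 and Atp5g3, whose mature proteins are known to be identical. Atp5g2 had 12049, 11505, 11546 and 10902 reads in complete and 5247, 5236, 5139 and 5274 in methionine-free medium, and fell by 1.14 (SE 0.036, adjusted p = 1.41e-24, limma). Atp5g3 fell by 0.55 (adjusted p = 1.01e-15) and Atp5g1 by 0.22 (adjusted p = 6.53e-05). On addition Atp5g2 rose by 1.14, Atp5g1 by 0.39 and Atp5g3 by 0.14, the last not called in the FPKM table or with either other scaling. The fall of Atp5g1 was not called with scaling to total reads, nor in the FPKM table without the block.

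By length-scaled level, the c subunit mRNA pool changed its make-up. Atp5g2 gave 51.8% ± 2.6 (SD, n = 4) of the summed FPKM of the 3 genes in complete medium, 38.3% ± 3.3 in methionine-free medium, 41.3% ± 2.3 in supernatant and 57.7% ± 1.8 in supplemented supernatant. Atp5g3 gave 37.02% ± 2.8, 45.2% ± 4.1, 43.1% ± 2.2 and 29.3% ± 2.3 in the same order, and Atp5g1 11.2% ± 1.1, 16.5% ± 1.0, 15.7% ± 1.9 and 13.1% ± 0.75. Over Atp5g2, Atp5g1 gained 0.92 (SE 0.036) and Atp5g3 0.59 (SE 0.030) in methionine-free medium, and the changes on addition were -0.75 and -1.005; all had exact permutation p = 0.0286, the smallest possible, with no overlap. Atp5g2 thus led where methionine was present, and by group means Atp5g3 was somewhat above it where methionine was not added. The shares of single libraries overlapped there. In methionine-free medium they were 35.35% to 42.35% for Atp5g2 and 40.23% to 49.58% for Atp5g3. In supernatant they were 39% to 44.07% and 40.51% to 45.64%.

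**Figure D3:**
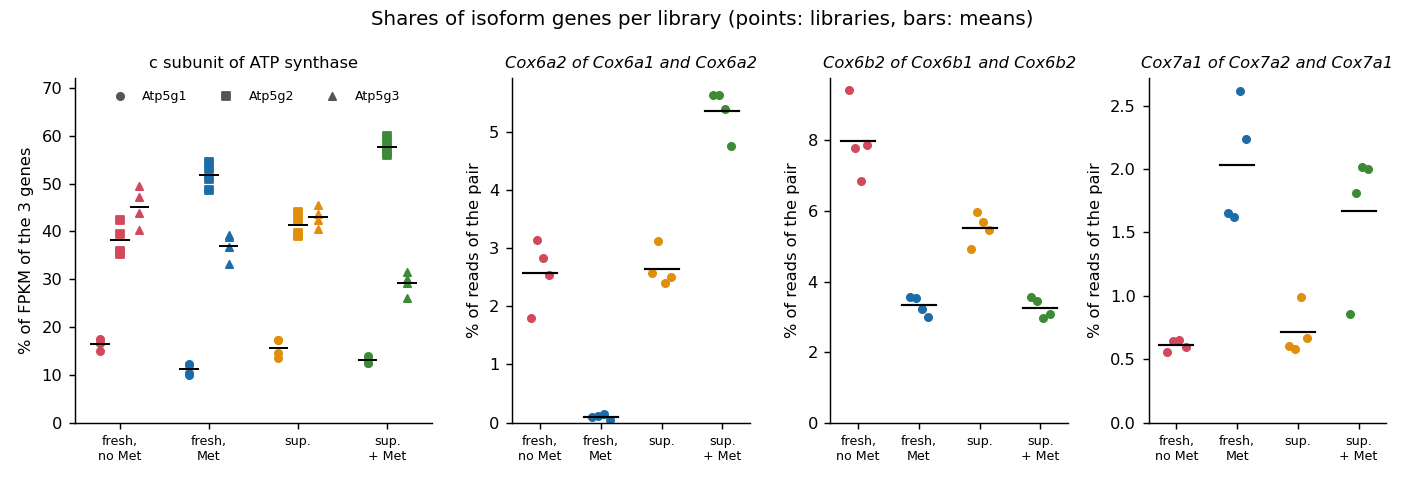
Percent of each library's level taken by isoform genes: at left the 3 genes of the c subunit as shares of their summed FPKM, then 3 complex IV forms as shares of the reads of their pair; points are libraries, bars group means, and the vertical scales differ. Atp5g2 leads in the 2 media with methionine, Cox6a2 climbs to 5.35% in supplemented supernatant, Cox6b2 is highest in methionine-free medium, and Cox7a1 is highest in complete medium with 1 supplemented library at 0.86%.

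Some members did not rise when methionine was added to supernatant: 5 of complex I, 3 of complex IV and 1 of complex V were not called, and 1 of complex III and 1 of complex V were lower. Among those of complex V, Atp5k (subunit e, which holds the dimer together) had 2173, 2060.3, 1618 and 1653 reads in complete, 1041, 870.1, 1005 and 1194 in methionine-free, 995, 1043, 951 and 901 in supernatant and 939.9, 1052, 911 and 958 in supplemented medium. The last 3 groups overlapped, and all their libraries lay below the complete ones. Its log2 difference was -0.86 in methionine-free medium (SE 0.078, adjusted p = 4.65e-12, limma) and -0.01 on addition (adjusted p = 0.903), and supplemented supernatant was -0.95 from complete medium (SE 0.078, adjusted p = 2.14e-12). Atp5j2 (subunit f) was lower in methionine-free medium by 0.30 and fell a further 0.22 on addition (limma, adjusted p = 2.03e-07 and 3.25e-05); in the FPKM table the second step was -0.09 and not called. Atp5l (subunit g) fell by 0.999 and regained 0.57 on addition.

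Whether supplemented supernatant matched complete fresh medium differed from gene to gene. Between the 2 media with methionine, 43 members were lower in supplemented supernatant and 8 higher, while 32.5% of all genes were lower and 32.5% higher, and the members' median was -0.11. Of the 65 members that fell without methionine and rose on addition, 26 were not called against complete medium, 33 were still lower and 6 were higher. By complex, 13 of 34 genes of complex I were lower, 4 of 4 of complex II, 5 of 9 of complex III, 11 of 15 of complex IV and 9 of 15 of complex V. In the FPKM table the count of lower members was 12, or 32 with the replicate number as a block. The difference between the 2 responses to methionine, that in supernatant minus that in fresh medium, was called for 39 members: 32 were lower and 7 higher, against 25% and 27.6% of all genes. Leaving Cox6a2 aside, the 3 largest were Cox7a1 (-1.02), Uqcrh (-0.90) and Atp5k (-0.88), so that methionine went with less of a rise in supernatant, or for Atp5k with none that was called (limma, adjusted p = 0.0172, 4.21e-12 and 4.91e-08). That of Cox7a1 was lost on leaving out supernatant library 2 (-0.86, adjusted p = 0.0506) or supplemented library 0 (-0.73, adjusted p = 0.0634); in FPKM it needed the block to be called.

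**Figure D4:**
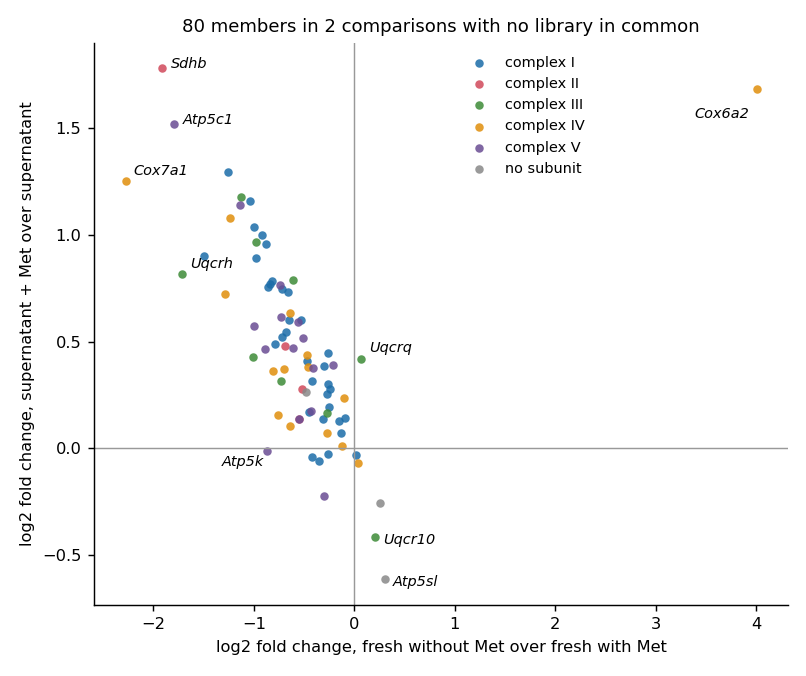
Log2 fold change of the 80 members in methionine-free against complete fresh medium (horizontal) and in supplemented against unsupplemented supernatant (vertical), coloured by complex. Most points lie at upper left, lower without methionine and higher when it was added. Uqcr10 and Atp5sl lie at lower right, and Atp5k lies near 0 on the vertical axis. Cox6a2 stands far from the rest at upper right, where Uqcrq also lies, close to 0 on the horizontal axis.

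Among subunit genes, those with short transcripts were lower in supplemented supernatant in a larger share. Of the 25 subunit genes whose longest coding transcript has at most 700 bases (GENCODE M21), 17 were lower in supplemented supernatant than in complete medium and 1, Cox6a2, was higher, with a median of -0.22. Of the 52 longer ones, 25 were lower and 7 higher, with a median of -0.07. Of the 113 tested genes of at most 700 bases that are not subunit genes, 51 were lower and 16 higher (median -0.17), while the 11583 longer ones had a median of -0.0014, with 3820 lower and 3870 higher. Across the 77 subunit genes Spearman's rho between length and this difference was 0.42, and across 11773 tested genes it was -0.03; genes are not independent replicates and share the libraries. The length of 700 bases was chosen after the values were seen. In methionine-free against complete medium, the medians were -0.64 for the short and -0.58 for the longer subunit genes. The 113 other short genes were also low there, with a median of -0.49, 70 lower and 23 higher, whereas the 11583 other longer genes had a median of 0.02, with 4874 lower and 5136 higher.

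**Figure D5:**
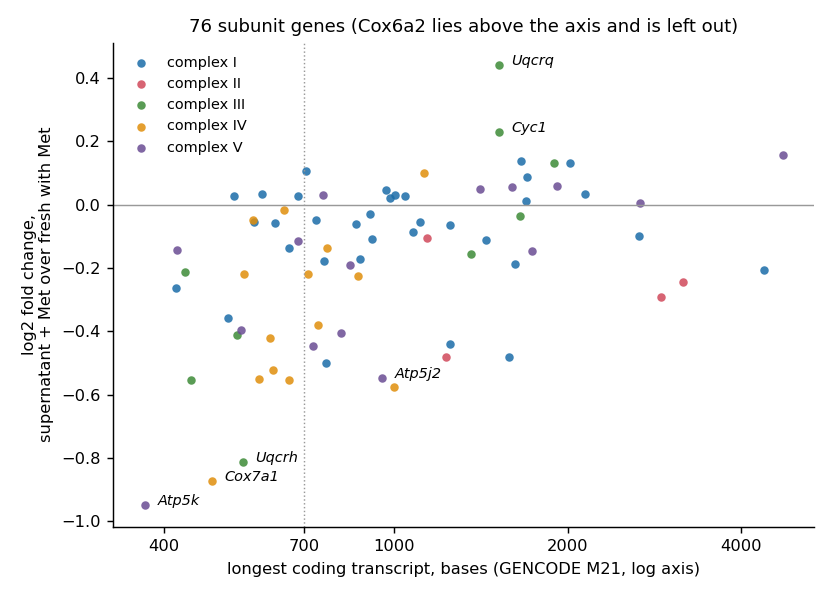
Log2 fold change of 76 subunit genes in supplemented supernatant against complete fresh medium (vertical) by the length of their longest coding transcript (horizontal, log axis); the dotted line is at 700 bases and Cox6a2, at 5.71, is left out. Atp5k, Cox7a1 and Uqcrh are lowest and lie left of the line, and Uqcrq is highest.

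The 3 members that encode no subunit moved differently. Atp5sl was higher without methionine (0.30, adjusted p = 5.67e-08) and lower on addition (-0.61, adjusted p = 4.67e-15, limma), with 1260.3, 1259, 1280.0 and 1152 reads in supplemented and 1841, 2029, 1809 and 1895 in unsupplemented supernatant. Cox4nb had the same directions, at 0.25 and -0.25. Atp5s moved with the subunits (-0.48 and 0.26); its rise was not called without replicate 1 of either supernatant group or with scaling to total reads. In the FPKM table the higher levels of Atp5sl and Cox4nb without methionine were called only with the block.

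Genes that build the complexes were called in both directions, read here against the 42.3% lower and 43.3% higher of all tested genes. Of 11 tested assembly factors of complex I, 3 were lower and 6 higher without methionine, with a median of 0.16. Ndufaf4, one of them, was higher by 2.19 (SE 0.045, adjusted p = 1.13e-29, limma) and fell by 1.37 on addition. Both tested factors of complex II were higher, Sdhaf1, which serves the iron-sulfur subunit Sdhb, by 1.96 (adjusted p = 1.32e-22) and Sdhaf2 by 0.62. For complex III 1 of 3 was lower and 1 higher, and Ttc19 was higher by 1.23. For complex IV 8 of 15 were lower and 7 higher; the copper chaperone Sco2 was higher by 2.53 and fell by 2.09 on addition, while Higd1a fell by 2.08 and rose by 1.28. For complex V 2 of 3 were higher and none lower, Tmem70 by 0.72 and Atpaf1 by 0.62.

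Of 6 tested chain genes outside the symbol rule, 4 were lower without methionine and 1 was higher; these and the counts below stand beside 42.3% lower and 43.3% higher over all tested genes. Usmg5, a small ATP synthase subunit, fell by 1.25, Atpif1, its inhibitor, by 0.77 and Ndufab1, the acyl carrier subunit of complex I, by 0.51. Cycs, cytochrome c, was the 1 that was higher, by 0.28, and it fell by 0.25 on addition (limma, adjusted p = 8.29e-09 and 5.10e-08). Of 9 carriers of ADP, ATP and phosphate and uncoupling genes, 8 were lower and 1 higher, with Vdac1, the outer membrane channel, down by 1.59 and Slc25a5, an ADP/ATP carrier, down by 1.14. Coenzyme Q synthesis was split much as all genes were, with 7 of 13 lower and 5 higher, from Coq3 at -1.22 to Coq10b at 1.19. Of 7 other donors of electrons to coenzyme Q, 5 were lower and 2 higher; Prodh was at -1.39 and Etfa at -1.18.

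Among 15 tested regulators of mitochondrial biogenesis, 3 were lower and 9 higher without methionine (42.3% and 43.3% of all tested genes), with a median of 0.29 against 0.01 for all tested genes; the difference from the subunits was not tested. Pprc1, a coactivator of the PGC-1 family, was higher by 1.22 (SE 0.034, adjusted p = 4.01e-26, limma) and Tfb2m, a mitochondrial transcription factor, by 1.02. Ppargc1b, another coactivator, was lower by 0.23 (adjusted p = 0.0105). Nrf1, whose core motif is shown above, was at 0.03 (adjusted p = 0.471), Esrra at 0.07 (adjusted p = 0.197) and Tfam at 0.07 (adjusted p = 0.0644), none of them called. On addition Ppargc1b rose by 0.72, Tfam by 0.22 and Nrf1 by 0.13, Pprc1 fell by 0.43 and Tfb2m by 1.02, and Esrra was not called (0.10, adjusted p = 0.0555).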

How the data were processed

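The authors deposited, per library, a depth-normalized signal (reads divided by 1 factor per library) and FPKM values for 23107 genes. Whole reads came out for 100% of signals (within 0.001) in all 16 libraries. Replicate 1 of methionine-free medium, with the step per read nearest to 1 (0.989), was left out of the count tests, which used 15 libraries. It had passed the same check, and replicate 3 of that medium, with a step of 1.02, was kept. The submitters' processing notes name Bowtie2 2.2.1, TopHat2 2.0.13, Cuffdiff 2.2.1, Cufflinks and FastQC 0.11.3, with mm10 and GRCm38 as builds; the counting tool and strand are not given in the sources used here. Without strand, reads of overlapping genes (37 of the 82 symbols overlap one), paralogs and pseudogenes may be shared. Genes with a mean of at least 10 were tested with limma 3.58.1 (R 4.3.3) on log2(signal + 1), 4 groups in 1 fit, Benjamini-Hochberg threshold 0.05; fold changes are on that scale and understate low genes. Alternatives were edgeR 4.0.16, DESeq2 1.42.0, other scalings, pseudocounts and filters, FPKM, and leaving out each library. Replicate numbers did not pair libraries in the signal table (correlations -0.07 to 0.07 over 24 pairs) but did in the FPKM table (0.43 to 0.86), so FPKM fits are given with and without a block. The genes picked for detail are, by rule, those with the 3 largest and the smallest fold change in each complex, opposite members and isoform pairs. The 4 largest interactions and medium differences are also among them. Cox7b and Ndufa4, picked as isoform pair genes, are counted in the checks below but are not described above. Other lists give 1 or both of the 2 largest called genes, and 8 set genes. Members and lists were chosen with earlier results of these data known.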

Additional observations from a re-analysis of the deposited data

Results flagged for a closer look

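Of 140 groups of 4 libraries (35 genes picked for detail, 4 media), 6 groups held 1 library set apart from the other 3. The gap was more than Dixon's critical share of the group's range, which flags about 1 in 20 groups by chance. The libraries were Atp5sl in methionine-free medium (1865 depth-normalized reads, below the others) and in supplemented supernatant (1152, below), Cox6b1 in supernatant (2722, below), Cox7a1 in supplemented supernatant (20.2, below), Ndufb7 in supernatant (3227, above) and Sdhc in methionine-free medium (2263, above).

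The response to methionine differed between supernatant and fresh medium by a test of the difference itself (limma, interaction term) for 39 members: in 32 the value in supernatant minus that in fresh medium was negative and in 7 positive. It was 5.70 for Cox6a2, which fell with methionine in fresh medium and rose with it in supernatant, -1.02 for Cox7a1, -0.90 for Uqcrh and -0.88 for Atp5k.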

How the results depend on the processing

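Of the 210 fold changes of genes picked for detail, 143 kept their direction and side of the threshold in the FPKM table. There 181 did so with a replicate block. With DESeq2 207 did so, with edgeR 206 and with quantile normalization 204. All 210 did so with either other pseudocount or with a replicate block on the depth-normalized values. Scaling to total reads kept 189 and reversed 6: Cox7a2 on addition (-0.0276), Cox7a2l in methionine-free medium (0.0603) and supernatant (0.0092), Cox8a in methionine-free medium (0.0372) and on addition (-0.12), and Ndufb7 in supernatant (0.12); the median of all genes was then 0.17 in methionine-free medium and -0.14 on addition. Members called higher were 1 in methionine-free medium and 1 in supernatant by FPKM (2 in supernatant with the replicate block). On addition, members called lower were 9 with scaling to total reads and 1 by FPKM. Supplemented supernatant against complete medium gave 12 lower and 1 higher by FPKM, and 2 higher there with the replicate block. For the interaction FPKM gave 2 lower and 1 higher, or 21 and 1 with the block. Supernatant against methionine-free medium gave 7 lower and 1 higher with scaling to total reads, 0 and 0 by FPKM, 0 and 2 with the block, 6 and 1 with edgeR, 1 higher with DESeq2 and 1 higher with no filter. In methionine-free medium edgeR on the recovered reads of 15 libraries called 5169 of all genes lower and 5401 higher, and limma on 16 libraries 5275 and 5397. Leaving out 1 library at a time gave 71 to 73 lower and 4 to 5 higher in methionine-free medium, 71 to 74 and 4 to 4 in supernatant, 4 to 4 lower and 62 to 67 higher on addition, 36 to 45 and 8 to 12 for supplemented against complete medium, and 30 to 36 and 5 to 7 for the interaction. For supernatant against methionine-free medium it gave 2 to 6 lower (6 without replicate 1 of methionine-free medium, 5 without replicate 3 and 4 without replicate 0 of complete medium) and 1 to 3 higher (1 without replicate 0 or 1 of methionine-free medium or replicate 3 of supernatant). Standard errors of the members' fold changes ran from 0.027 to 0.26 on the log2 scale, the last for Cox7a1 at 12.5 to 91.8 reads.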
